A study of Mus musculus with 44 samples.

Results

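The comparison asked how the map of H3K27ac, a histone acetylation found at active promoters and enhancers, differed between intermediate and early cells of mouse liver. The members were 4 of the series' 44 libraries, 2 of intermediate and 2 of early cells, taken by their labels, with every H3K27ac peak of each split into promoter and distal. Intermediate cells were EGFP+ CD24+ EPCAM- and early cells EGFP+ CD24-. Both came from wild-type Rosa26-LSL-Cas9-EGFP mice injected retro-orbitally with AAV8-TBG-Cre (5e11 gc in each mouse) and given DDC diet at 0.1% from 1 week later for 8 to 9 weeks. The TBG promoter drives Cre in hepatocytes, so EGFP marks cells of hepatocyte origin. The other groups were used here for reference. Late cells (EGFP+ CD24+ EPCAM+, 3 libraries) and biliary epithelial cells (BEC, EGFP- EPCAM+, 2 libraries) had the same diet for the same weeks. Hepatocytes (Hep, 2 libraries, Percoll gradient) had normal diet. The same virus dose is given for late cells, BEC and Hep. The labels used here give no ages.

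DDC is a hepatotoxic compound that injures the bile ducts, and hepatocytes under it can take on features of biliary cells, a process called biliary reprogramming. CD24 and EPCAM are surface proteins of biliary and progenitor-like cells. H3K27ac with H3K4me1 marks active enhancers, which lie away from gene starts and tend to differ between cell types, whereas H3K4me3 marks promoters, many of which are open in every cell type. AP-1 factors (the FOS and JUN proteins) and the TEAD factors, which carry the signal of the Hippo pathway coactivator YAP, bind such enhancers in many injured epithelia.

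Intermediate 1 and 2 had 51057 and 44483 H3K27ac peaks, covering 13.1 and 8.84 Mb, against 23511 and 35824 peaks covering 8.35 and 8.47 Mb in early 1 and 2. The shortest list was thus that of an early library, and read depth is unknown, so each result was computed both with all listed peaks and with the 23511 highest-scoring peaks of every library, here called equal peak numbers. Of the peaks, 66.2% and 66.5% in intermediate libraries and 65.7% and 69.3% in early libraries were distal, that is, more than 2500 bp from every protein-coding gene start. The labels do not say that libraries of a stage came from separate animals, so p-values measure the spread between these libraries, which may be technical. In sorted populations, fewer cells with a peak and less acetylation per cell cannot be told apart.

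The gates were first checked at their own genes and at marker lists. Cd24a, whose product defined the gate, had 440 and 530 bp under peaks within 2500 bp of its start in intermediate libraries and 0 and 0 bp in early libraries, a log2 difference of 2.54 ± 0.48 (SE, limma adjusted p = 0.0217, and 0.188 with equal peak numbers). Epcam, whose product was gated out of the intermediate cells, had 275 and 0 bp in intermediate libraries and 0 and 0 bp in early libraries, and was not called (adjusted p = 0.368). Of 30 hepatocyte function genes, 21 and 19 had a promoter peak in intermediate libraries and 17 and 20 in early libraries. With equal peak numbers, 11 and 10 had one in intermediate libraries and 17 and 15 in early libraries. Of 30 biliary markers, 25 and 17 had a listed promoter peak in intermediate libraries and 10 and 14 in early libraries. Equal peak numbers left 18 and 13 in intermediate libraries and 10 and 10 in early libraries. Markers of other liver cells were nearly without promoter peaks. The 9 stellate and fibroblast genes with a placed start summed to 0 bp in both intermediate libraries and to 215 and 359 bp in early libraries, all of it at Reln. The 8 endothelial genes summed to 0 bp except for 123 bp at Tie1 in early 2. The 9 macrophage genes summed to 508 and 225 bp in intermediate libraries and 0 and 146 bp in early libraries, at Cd68 and Spi1. The 8 lymphocyte genes held peaks at Lck alone (142 and 178 bp in intermediate, 0 and 344 bp in early libraries), and the 10 neutrophil genes held 119 bp, at Elane in intermediate 1. Of distal regions near these genes, 2 of 13 stellate and fibroblast regions were higher with listed peaks (near Col1a1 and Des). Of 43 endothelial regions 3 were higher and 2 lower, and none of 8 macrophage, 9 lymphocyte and 4 neutrophil regions was called. Over all regions within 100 kb of a gene start, 7.19% were higher and 2.15% lower. With equal peak numbers, 2 of 11 stellate and fibroblast regions were higher, and of 27 endothelial regions 2 were higher and 2 lower. Of 3 macrophage regions 2 were lower, and none of 3 lymphocyte and 2 neutrophil regions was called. Over all 24815 such regions, 1309 were higher and 1704 lower. The part of such cells in the results below was not tested.

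The start regions of Tinagl1, Cald1, Ankrd1 and Ptpn14, with H3K27ac in intermediate libraries, and of Rdh16, with H3K27ac in early libraries, are shown as examples of promoters named in the results. Each is the RefSeq window of 250 bases before to 50 bases after the start (GRCm38.p6, the mm10 build), read 5′ to 3′ along the gene. Capitals mark the TEAD core GGAATG or its reverse complement CATTCC, and the AP-1 letters TGANTCA, searched on both strands.
Tinagl1 (chr4:130175073-130175372, minus strand): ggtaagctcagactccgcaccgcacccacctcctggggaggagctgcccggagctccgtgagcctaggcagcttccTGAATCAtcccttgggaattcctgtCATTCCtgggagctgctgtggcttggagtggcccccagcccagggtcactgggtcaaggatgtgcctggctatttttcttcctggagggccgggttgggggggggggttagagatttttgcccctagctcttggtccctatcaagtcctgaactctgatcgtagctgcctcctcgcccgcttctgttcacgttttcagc
Cald1 (chr6:34709194-34709493, plus strand): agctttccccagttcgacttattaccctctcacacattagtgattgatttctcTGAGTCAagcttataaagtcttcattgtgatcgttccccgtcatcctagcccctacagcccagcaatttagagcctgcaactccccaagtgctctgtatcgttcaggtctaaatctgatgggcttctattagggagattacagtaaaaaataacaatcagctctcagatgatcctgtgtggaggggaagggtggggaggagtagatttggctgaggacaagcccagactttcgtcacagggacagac
Ankrd1 (chr19:36119795-36120094, minus strand): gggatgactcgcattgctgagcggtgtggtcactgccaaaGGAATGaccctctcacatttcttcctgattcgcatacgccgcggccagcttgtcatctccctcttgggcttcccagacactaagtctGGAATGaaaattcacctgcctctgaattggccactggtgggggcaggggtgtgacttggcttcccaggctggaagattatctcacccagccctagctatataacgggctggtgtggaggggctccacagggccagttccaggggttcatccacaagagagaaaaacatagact
Ptpn14 (chr1:189728018-189728317, plus strand): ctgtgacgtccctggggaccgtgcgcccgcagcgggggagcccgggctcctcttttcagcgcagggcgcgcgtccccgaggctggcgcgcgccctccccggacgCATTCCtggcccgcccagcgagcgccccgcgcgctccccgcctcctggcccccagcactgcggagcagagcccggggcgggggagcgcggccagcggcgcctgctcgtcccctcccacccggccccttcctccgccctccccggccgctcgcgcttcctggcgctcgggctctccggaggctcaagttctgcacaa
Rdh16 (chr10:127800903-127801202, plus strand): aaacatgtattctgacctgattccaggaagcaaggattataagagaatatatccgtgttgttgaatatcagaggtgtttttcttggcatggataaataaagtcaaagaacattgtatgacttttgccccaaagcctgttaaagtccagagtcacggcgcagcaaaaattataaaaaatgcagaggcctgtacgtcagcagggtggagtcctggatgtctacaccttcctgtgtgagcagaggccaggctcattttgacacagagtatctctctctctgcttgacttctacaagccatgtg

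Listed peaks covered 245 and 197 bp of the Ankrd1 window in intermediate libraries and none of it in early libraries. The Ptpn14 window was covered over 249 and 249 bp in intermediate libraries, the Cald1 window over 146 and 144 bp, and the Tinagl1 window over 0 and 115 bp, with 0 and 0 bp in early libraries for all of them. The Rdh16 window was covered over 0 and 127 bp in intermediate libraries and over its full 300 bp in both early libraries. The TEAD core was in 5 of 34 windows of promoters called higher with both peak sets (14.7%), in 4 of 11 called lower (36.4%) and in 12.1% of the 10034 windows of all promoters tested. The AP-1 letters were in 4 of those 34 (11.8%), 1 of 11 (9.09%) and 5.07% of all. Ankrd1 and Ptpn14 were called with listed peaks only and are not among the 34. Each intermediate window shown holds a match and the early window none, so the examples do not represent these shares. The letters of FOXA, C/EBP, HNF4A and ETS factors were also searched. Each matched 1 of the 34 (2.94%), against 2.64%, 8.35%, 1.47% and 8.35% of all windows. Of the 11 called lower, 1 held the C/EBP letters and none the others.

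At distal regions, many sites with H3K27ac in one stage had none in the other. Coverage was tested on log2(bp under peaks + 100), with limma, over all 11 H3K27ac libraries, so differences are on that scale and understate those of short peaks. With listed peaks, 3745 distal regions were higher (7.36%) and 1113 lower (2.19%) in intermediate than in early libraries, together 9.55% of the 50877 tested. With equal peak numbers, 1636 were higher (5.52%) and 2030 lower (6.84%), together 12.4% of the 29659 tested, so higher calls were 77.1% of calls in one peak set and 44.6% in the other, and 62.4% after quantile normalization. Both peak sets called 1178 regions higher (2.32%) and 654 lower (1.29%), and 0 in opposite directions. Of the 1178, 1134 had a peak in both intermediate and no early library, and of the 654, 487 had one in both early and no intermediate library. By presence alone, without a test, 6968 distal regions had a listed peak in both intermediate and no early library (13.7%). The opposite pattern, a peak in both early and no intermediate library, was found at 1062 (2.09%). With equal peak numbers, 2782 of the 29659 had the first pattern (9.38%) and 2243 the opposite (7.56%). The median distance to a gene start was 34.1 kb for the 1178 regions called higher in both peak sets and 28.5 kb for the 654 called lower, against 29.8 kb for all distal regions tested. Of the 1178, 54.6% lay inside a protein-coding gene, as did 57.2% of the 654 and 57.0% of all.

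Promoters gave fewer calls and depended more on single libraries. With listed peaks, 517 promoters were higher (4.16%) and 30 lower (0.242%), together 4.41% of the 12416 tested, beside a median difference of 0.46 over all of them. With equal peak numbers the median was 0.00, and 73 were higher (0.667%) and 93 lower (0.850%), together 1.52% of the 10939 tested. Both peak sets called 37 promoters higher (0.298%) and 14 lower (0.113%). By presence alone at equal peak numbers, 568 promoters had a peak in both intermediate and no early library (5.19%) and 376 the opposite (3.44%). With listed peaks, 1344 promoters had this pattern (10.8%) and 44 the opposite (0.354%). Without intermediate 1, no promoter passed (0 by limma, 1487 at an unadjusted p under 0.05), and without early 1 none did either (0, with 2183 unadjusted). Leaving out Hep 1 or Hep 2 gave 247 and 248 calls, and leaving out early 2 gave 1116. The distal total stayed between 3875 (without intermediate 1) and 5819 (without early 2) when any of the 11 libraries was left out. Its split by direction moved more: without early 1, 2704 regions were higher and 2080 lower (56.5% higher, against 77.1% with all libraries), and without intermediate 1, 2420 were higher and 1455 lower (62.5%).

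**Figure D1:**
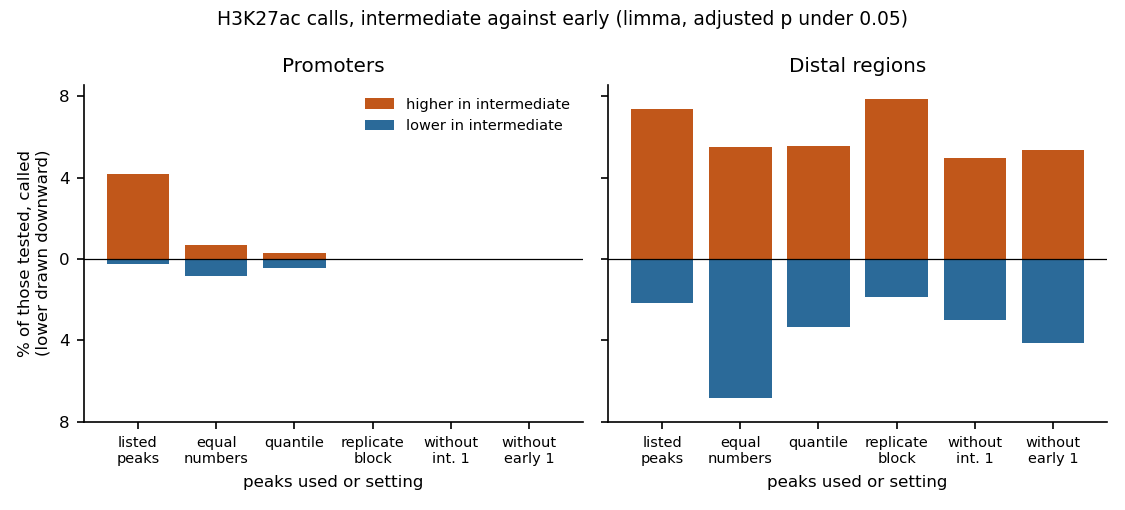
Bars give the percentage of promoters (left) and distal regions (right) called higher (upward) or lower (downward) in intermediate than in early libraries, by limma at an adjusted p under 0.05, for the listed peaks and 5 other settings. Distal calls numbered between 3666 and 4941 in the 6 settings, while promoter calls were 547 with listed peaks and 0 with the replicate block and without intermediate 1 or early 1.

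Among the 10 named promoters called higher in both peak sets, Tinagl1, which encodes a secreted matrix glycoprotein, had the largest difference with equal peak numbers. With listed peaks it had 679 and 703 bp under peaks in intermediate libraries and 0 and 0 bp in early libraries (log2 difference 2.98 ± 0.32 SE, adjusted p = 0.0129). Hep libraries had 0 and 0 bp there, the 3 late libraries 518 to 762 bp and the BEC libraries 778 and 969 bp. Pik3ip1, which encodes an inhibitor of PI3 kinase, had 833 and 580 bp in intermediate libraries and 0 and 0 bp in early libraries (2.99 ± 0.32 SE, adjusted p = 0.0129). The 10 named promoters were picked for having no overlap between the stages. With listed peaks, 32.1% of all 12416 promoters tested had no overlap with intermediate higher. Cald1, encoding the actin-binding protein caldesmon, had 587 and 492 bp in intermediate and 0 and 0 bp in early libraries (2.67 ± 0.40 SE, adjusted p = 0.0159), but Hep libraries had 782 and 446 bp. The promoter of Cmtm3, a membrane protein gene, had 523 and 725 bp in intermediate and 0 and 0 bp in early libraries. Hdac7, a class IIa histone deacetylase gene, had 662 and 398 bp in intermediate and 0 and 0 bp in early libraries. Scx, which encodes the tendon transcription factor scleraxis, had 511 and 432 bp in intermediate and 0 and 0 bp in early libraries. Like Tinagl1, Cmtm3, Hdac7 and Scx had 0 and 0 bp in Hep libraries and peaks in every late and BEC library. The other 4 of the 10 named promoters called higher, Entpd7, Mettl21a, Bnip2 and Fgfbp3, had peaks in both Hep libraries and in all late and BEC libraries, so the early libraries alone lacked or nearly lacked them. Entpd7 was the exception with an early peak, 537 and 442 bp in intermediate against 0 and 123 bp in early libraries.

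Of the 10 named promoters called lower in both peak sets, Rdh16, a retinol dehydrogenase gene, had 0 and 127 bp in intermediate libraries and 607 and 416 bp in early libraries (log2 difference -2.0 ± 0.41 SE, adjusted p = 0.0283). Hep libraries had 1101 and 1274 bp there, and late and BEC libraries 0 bp. Shmt2, the mitochondrial serine hydroxymethyltransferase gene, had 0 and 0 bp in intermediate and 379 and 597 bp in early libraries (-2.53 ± 0.34 SE, adjusted p = 0.0149). Pltp, which encodes the phospholipid transfer protein of plasma lipoproteins, had 0 and 0 bp in intermediate and 457 and 260 bp in early libraries (adjusted p = 0.0195). Enho, encoding the secreted peptide adropin, had 0 and 0 bp in intermediate and 682 and 321 bp in early libraries (adjusted p = 0.0207). Rarres1, a retinoid-responsive gene, had 0 and 0 bp in intermediate and 613 and 373 bp in early libraries. The remaining named promoters called lower were Mrgprg, Lrrc69, Prox2, Kcnmb3 and Olfr1160, and the start of Dlst lies close to that of Prox2. All 10 had a peak in both Hep libraries, and the late libraries had 0 bp at 9 of them, with 149 bp at Prox2 in late 2.

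**Figure D2:**
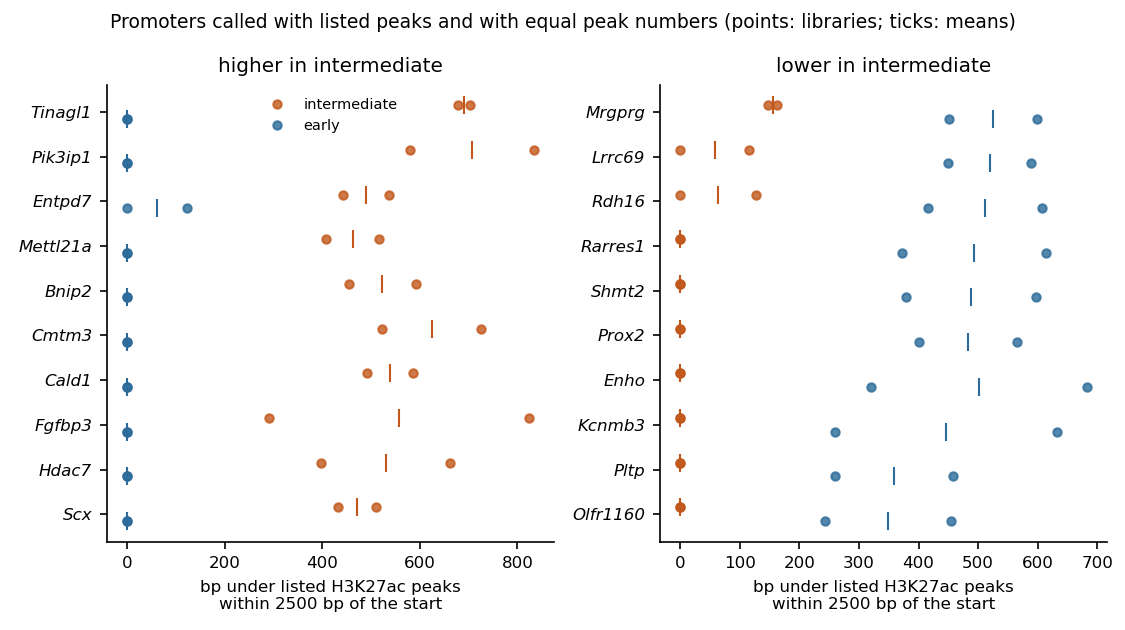
Each row is a promoter called in the same direction with listed peaks and with equal peak numbers, and each point is 1 library (2 intermediate, 2 early), placed by the bp under listed H3K27ac peaks within 2500 bp of the start. Ticks are means. At Tinagl1 the intermediate libraries lay at 679 and 703 bp and both early libraries at 0 bp, while at Shmt2 the order was the opposite, 0 and 0 bp against 379 and 597 bp.

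Among distal regions called in both peak sets, ranked by listed peaks, the largest difference with intermediate higher was at chr2:167789360-167790304, between genes and 101 kb from the nearest protein-coding start, that of Cebpb. It had 817 and 618 bp under peaks in intermediate libraries and 0 and 0 bp in early libraries (log2 difference 3.02 ± 0.17 SE, adjusted p = 0.000390). Hep libraries had 0 and 0 bp there, late libraries 663 to 793 bp and BEC libraries 725 and 896 bp. H3K4me1 peaks covered 464 and 548 bp of it in intermediate libraries and 0 and 0 bp in early libraries. A region inside Plxna1 (chr6:89344915-89345908), which encodes a semaphorin receptor, had 919 and 490 bp in intermediate and 0 and 0 bp in early libraries (adjusted p = 0.000856). The largest difference with intermediate lower was inside Osbpl11 (chr16:33170531-33171405), an oxysterol-binding protein gene, with 0 and 0 bp in intermediate and 675 and 594 bp in early libraries (-2.87 ± 0.13 SE, adjusted p = 0.000390). With equal numbers this Osbpl11 difference was -2.38, smaller than those of regions nearest to Eea1 (-2.81) and 4932438A13Rik (-2.71). Hep libraries had 792 and 683 bp at the Osbpl11 region, and late and BEC libraries 0 bp. A region 13.2 kb from the start of Msmo1, a gene of cholesterol synthesis, had 0 and 0 bp in intermediate and 396 and 726 bp in early libraries (adjusted p = 0.0227), and it lay inside the neighbouring Klhl2.

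Genes were then ranked by how many of their distal regions, assigned to the nearest start within 100 kb, were called with listed peaks. Of all 42057 regions so assigned, to 10725 genes, 7.19% were higher and 2.15% lower. The genes named here were picked for the highest counts, so counts above these shares follow from the choice. Filip1l, whose product acts on filamin, had 7 of 22 regions higher, and all 5 of those called in both peak sets lay inside Filip1l and the overlapping Cmss1. Ets1, an ETS-family transcription factor gene, had 6 of 19 higher, as had Pcdh1, a protocadherin gene. Tns1, encoding the focal adhesion protein tensin, had 6 of 20, Clmn 6 of 23 and Arid5b 6 of 28. Both peak sets called 2 of these regions at Tns1, 2 at Clmn and 0 at Arid5b. Tead1, the gene of a YAP-binding transcription factor, had 5 of 20, and Bach2, a transcriptional repressor gene, 5 of 10. None of these genes had a region called lower, and none of the promoters tested among them was called (adjusted p = 0.664 to 1.00), while Ets1 and Bach2 had no promoter value. At the other end, 7 genes had 3 regions called lower. Among them were Abcg8 (3 of 7), a subunit gene of the sterol exporter of bile, and Pdk4 (3 of 7), the pyruvate dehydrogenase kinase of fasting. None of the lower regions of Abcg8 and Pdk4 was called in both peak sets, whereas Dip2b (3 of 13) had 2 such regions. Hacd2 (3 of 23, with 1 higher) was the only one of the 7 with all 3 lower regions called in both peak sets, and 2 of those lay inside the neighbouring Mylk.

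Regions near biliary transcription factor genes rose more often than they fell. Of 145 regions, 25 (17.2%) were higher and 1 (0.690%) lower, against 7.19% and 2.15% of all 42057 regions assigned to a gene. Such listed-peak counts lean to higher calls in general, so each list's count with equal peak numbers is given too: 11 higher and 2 lower of 85 here, against 1309 higher and 1704 lower of all 24815. One region called higher in this list lay inside Tead1, 41.0 kb from its start (chr7:112720073-112720562), and had 360 and 411 bp in intermediate and 0 and 0 bp in early libraries (log2 difference 2.28 ± 0.20 SE, adjusted p = 0.000574). A region 29.5 kb from Sox9, a duct-specifying factor gene, had 300 and 226 bp in intermediate and 0 and 0 bp in early libraries (1.85 ± 0.22 SE, adjusted p = 0.00177). That region had 87 to 192 bp in late libraries but 0 and 0 bp in BEC and Hep libraries. Sox4, another duct factor gene, had 4 of 12 regions higher. In this list 2 promoters of 14 were higher with listed peaks and 0 of 12 with equal numbers, beside 4.16% and 0.667% of all promoters. Klf5, an epithelial Krüppel-like factor gene, had 389 and 255 bp in intermediate and 0 and 0 bp in early libraries (adjusted p = 0.0201). Ehf, an epithelial ETS factor gene, had 409 and 426 bp against 0 and 0 bp (adjusted p = 0.0432).

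Biliary markers had 19 of 184 regions higher (10.3%) and 3 lower (1.63%) with listed peaks, beside 7.19% and 2.15% of all assigned regions. With equal numbers they had 8 higher and 7 lower of 124, beside 1309 higher and 1704 lower of all 24815. The clearest case for the sort gene Epcam was a region 15.8 kb from its start (chr17:87619940-87620412), with 314 and 280 bp in intermediate libraries and 0 and 0 bp in early libraries (log2 difference 1.99 ± 0.13 SE, adjusted p = 0.000390). It carried H3K4me1 over 299 and 276 bp in intermediate and 0 and 0 bp in early libraries, although the Epcam promoter itself was not called. In all, 3 of 10 Epcam regions were higher, whereas 0 of the 3 Cd24a regions were. Dcdc2a, which encodes a cilium-associated doublecortin protein of bile ducts, had 473 and 478 bp at its promoter in intermediate and 0 and 0 bp in early libraries (adjusted p = 0.0159). Inside Dcdc2a, a region 14.1 kb from the start had 363 and 417 bp against 0 and 0 bp (adjusted p = 0.000856). A region 26.0 kb from Cdh1, the E-cadherin gene, had 422 and 234 bp in intermediate and 0 and 0 bp in early libraries (adjusted p = 0.00521). Prom1, a progenitor marker gene, went the other way, with 0 and 0 bp in intermediate and 360 and 355 bp in early libraries at a region inside it (adjusted p = 0.000390). Hep libraries had 286 and 323 bp at that Prom1 region. Ddr1, a collagen receptor gene, had one region called higher and one called lower.

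AP-1 family genes had 8 of 50 regions higher (16.0%) and 0 lower with listed peaks, beside 7.19% and 2.15% of all assigned regions. With equal numbers they had 4 higher and 3 lower of 39, beside 1309 higher and 1704 lower of all 24815. A region 43.3 kb from Fos had 459 and 458 bp in intermediate and 0 and 0 bp in early libraries (log2 difference 2.48 ± 0.16 SE, adjusted p = 0.000390), and one 30.3 kb from Jun had 293 and 252 bp against 0 and 0 bp (adjusted p = 0.000470). Regions near Fosb and Fosl2 were also called in both peak sets. The Fosb region had 289 and 427 bp in Hep libraries, unlike those of Fos, Jun and Fosl2, which had 0 bp there. No AP-1 promoter of 9 was called.

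Cytoskeleton and junction genes had 22 of 196 regions higher (11.2%) and 0 lower with listed peaks, beside 7.19% and 2.15% of all assigned regions. With equal numbers they had 13 higher and 5 lower of 133, beside 1309 higher and 1704 lower of all 24815. Actn1, the α-actinin gene, had a region 10.6 kb from its start with 369 and 291 bp in intermediate and 0 and 0 bp in early libraries (adjusted p = 0.00357). Myh9, a non-muscle myosin gene, had one inside the gene with 264 and 227 bp against 0 and 0 bp (adjusted p = 0.000484). Itga3, encoding an integrin that binds laminin, had regions called in both peak sets too. Itga2 and Itga3 promoters were called with listed peaks but not with equal numbers. Housekeeping genes, listed as a reference, had 7 of 64 regions higher (10.9%) and 0 lower with listed peaks, and 1 higher and 3 lower of 48 with equal numbers.

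YAP target genes had 17 of 172 regions higher (9.88%) and 3 lower (1.74%) with listed peaks, beside 7.19% and 2.15% of all assigned regions. With equal numbers they had 6 higher and 4 lower of 115, beside 1309 higher and 1704 lower of all 24815. Of 22 promoters, 4 were higher with listed peaks, beside 4.16% of all promoters, and 0 of 18 with equal numbers. Ankrd1, a cardiac ankyrin repeat protein gene and common YAP readout, had 379 and 334 bp in intermediate libraries and 0 and 0 bp in early libraries (log2 difference 2.19 ± 0.40 SE, adjusted p = 0.0201). With equal numbers it had 379 and 161 bp against 0 and 0 bp (adjusted p = 0.600). Ptpn14, a phosphatase gene that restrains YAP, had 713 and 537 bp in intermediate and 0 and 0 bp in early libraries (2.85 ± 0.33 SE, adjusted p = 0.0149), and a region inside it had 451 and 444 bp against 0 and 0 bp (adjusted p = 0.000971). The Ptpn14 promoter kept no peak in intermediate 2 with equal numbers (352 and 0 bp), whereas its distal region was called in both sets. Myof and Arhgef17 were the other promoters called. Ccn1 and Amotl2, both direct YAP targets, each had 1 region called lower in both peak sets and another called higher with listed peaks only. At the lower Ccn1 region (24.1 kb away) intermediate libraries had 276 and 167 bp and early libraries 599 and 634 bp (-1.18 ± 0.19 SE, adjusted p = 0.00720), and at the higher one (31.5 kb away) 269 and 170 bp against 0 and 0 bp (adjusted p = 0.00841). Amotl2 had 0 and 0 bp in intermediate and 299 and 135 bp in early libraries at its lower region (adjusted p = 0.00356), and 415 and 396 bp against 0 and 0 bp at its higher one (adjusted p = 0.0416).

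The Notch pathway list had 15 of 125 regions higher (12%) and 1 lower (0.800%) with listed peaks, but 4 higher and 4 lower of 68 with equal numbers, and no promoter of 15 was called. Hey1, a Notch target gene, had regions 45.8 and 86.6 kb away called in both sets, the second with 240 and 185 bp in intermediate and 0 and 0 bp in early libraries (adjusted p = 0.00233). Heyl and Lfng, a target and a receptor-modifying glycosyltransferase gene, each had 2 regions called higher with listed peaks and 1 in both peak sets, which for Lfng lies inside the gene 4.01 kb from the start used. A region inside Rbpj, the gene of the pathway's DNA-binding factor, had 0 and 0 bp in intermediate and 254 and 243 bp in early libraries (adjusted p = 0.000399). Genes of TGF-beta signalling and of the epithelial-mesenchymal transition had 17 of 163 regions higher (10.4%) and 1 lower (0.613%) with listed peaks. With equal numbers they had 9 higher and 5 lower of 90. Over all assigned regions, 7.19% were higher and 2.15% lower with listed peaks, and 1309 higher and 1704 lower of 24815 with equal numbers. Inside Tgfbr2, the type II receptor gene, a region had 324 and 244 bp in intermediate and 0 and 0 bp in early libraries (adjusted p = 0.00337), and one 14.8 kb from Snai1 had 293 and 183 bp against 0 and 0 bp (adjusted p = 0.00130). Zeb2 was called higher at a region inside the gene (329 and 433 bp against 0 and 123 bp, adjusted p = 0.0187), and Zeb1 lower at one inside it. Tgfb1 was the one promoter of 20 called with listed peaks, beside 4.16% of all promoters called higher. It had 338 and 358 bp in intermediate and 0 and 0 bp in early libraries, and held no peak in these 4 libraries with equal numbers.

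Hepatocyte lists held calls in both directions. Over all assigned regions, 7.19% were higher and 2.15% lower with listed peaks, and 1309 higher and 1704 lower of 24815 with equal numbers. Hepatocyte function genes had 8 of 127 regions higher (6.30%) and 5 lower (3.94%), bile acid and xenobiotic genes 1 of 69 higher (1.45%) and 3 lower (4.35%), and hepatocyte transcription factor genes 14 of 195 higher (7.18%) and 2 lower (1.03%). At equal peak numbers the calls leaned lower, with 3 higher and 10 lower of 83 for hepatocyte function, 0 and 6 of 32 for bile acid and xenobiotic genes, and 1 and 4 of 104 for the transcription factors. Foxa2, a pioneer factor gene of the liver, had 4 of 18 regions higher with listed peaks, and Cebpa, a hepatocyte differentiation factor gene, 2 of 10, but none of these was called with equal numbers. A region 24.5 kb from Arg1, the urea cycle arginase gene, had 0 and 0 bp in intermediate and 684 and 346 bp in early libraries (log2 difference -2.56 ± 0.25 SE, adjusted p = 0.000788), with 662 and 819 bp in Hep libraries. A region 29.5 kb from Cyp7a1, the rate-limiting enzyme gene of bile acid synthesis, had 0 and 113 bp in intermediate and 268 and 403 bp in early libraries (adjusted p = 0.0232). One 30.0 kb from Ppara, the fatty acid-sensing nuclear receptor gene, had 0 and 0 bp in intermediate and 261 and 224 bp in early libraries (adjusted p = 0.000428). Alb, the albumin gene, had a region inside it that was higher, with 214 and 199 bp in intermediate and 0 and 0 bp in early libraries (adjusted p = 0.00104). That Alb region had no peak in Hep libraries and peaks in every late and BEC library. No promoter of the 3 hepatocyte lists was called with listed peaks, beside 4.16% of all promoters higher and 0.242% lower. With equal numbers, 2 of 25 hepatocyte function promoters and 1 of 14 bile acid and xenobiotic promoters were lower. Among hepatocyte transcription factor promoters 1 of 13 was higher. Over all 10939 promoters tested with equal numbers, 0.667% were higher and 0.850% lower.

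**Figure D3:**
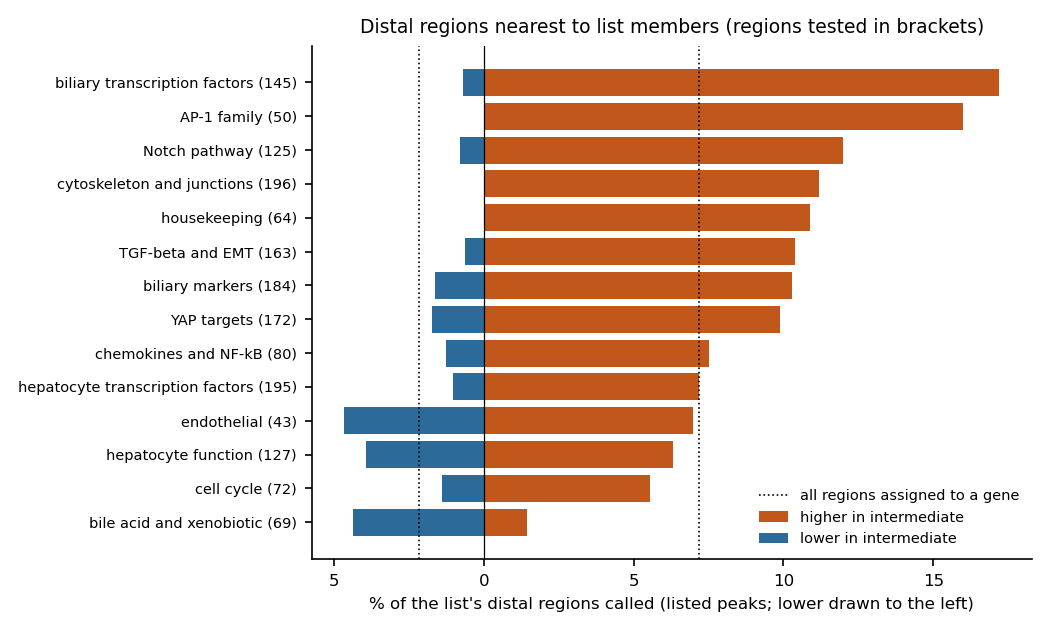
For each gene list with 20 or more regions, bars give the percentage of its distal regions called higher (right) or lower (left) in intermediate than in early libraries with listed peaks, with the number of regions in brackets. Dotted lines mark 7.19% and 2.15% for all regions assigned to a gene. Biliary transcription factors (17.2%) and AP-1 genes (16.0%) had the highest shares higher among these lists with listed peaks, and bile acid and xenobiotic genes the lowest (1.45%).

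Regions of the 2 stages were next described in libraries that played no part in choosing them. An intermediate set held the 2196 distal regions with a peak in both intermediate libraries at equal numbers and none in either full early list, an early set the 634 with the mirror pattern, and a shared set the 5795 with a peak in all 4. These definitions were chosen after the data were seen. The full early lists are shorter than the full intermediate lists, so absence was easier to meet for the intermediate set. The sizes of these sets, and of the promoter sets below, therefore do not compare the stages. With equal numbers on both sides, 2782 distal regions had a peak in both intermediate and no early library, and 2243 the opposite. In the intermediate set, the share with an H3K27ac peak was 8.15% ± 0.580 in Hep libraries (SD, n = 2), 91.9% ± 6.65 in late (n = 3) and 79.4% in each BEC library. In the early set, 78.8% ± 2.34 of regions had one in Hep libraries, 8.04% ± 5.63 in late cells and 4.81% ± 0.558 in BEC. The shared set stood between 71.1% and 90.0% on average in these groups. Of the intermediate set, 1321 regions (60.2%) had a peak in all late and BEC libraries and in no Hep library, and 13 had none in any Hep, late or BEC library. Of the early set, 359 (56.6%) had a peak in both Hep libraries and in no late or BEC library, 97 (15.3%) had none in Hep, and 70 (11%) had none in any of the 3 groups. The mirrored promoter sets had 319 and 20 members, and at the 319 the Hep libraries had peaks at 65.7% ± 3.32 (n = 2), late at 95.6% ± 4.39 and BEC at 91.5% ± 1.77.

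The other marks were separate libraries of the same stages. H3K4me1 covered 52.4% ± 5.57 of the intermediate set in intermediate libraries (SD, n = 2) and 14.5% ± 12.1 in early libraries, with 56.4% and 48.5% in intermediate 1 and 2 and 5.92% and 23.0% in early 1 and 2. At the shared set the same libraries had 72.2% ± 6.31 in intermediate and 59.1% ± 31.3 in early cells. Early 1 had 12785 H3K4me1 peaks, against 48939 in early 2 and 36129 and 33058 in intermediate 1 and 2, so the low share in early 1 moved with its short list, while early 2, the longest of the 4, was also below both intermediate libraries. The part of list length was not tested further. At the early set, H3K4me1 was present at 32.6% ± 1.12 in intermediate and 56.3% ± 34.6 in early libraries, which overlapped (31.9% and 80.8% in early 1 and 2). With 2 libraries a stage, an exact permutation test cannot go below p = 0.333, so no test was made. H3K4me3 peaks lay at 8.33% ± 0.837 of the intermediate set in intermediate and 3.64% ± 0.386 in early libraries. At the 319 promoters H3K4me3 was present at 90.3% ± 0.887 in intermediate and 79.2% ± 0.665 in early libraries. The H3K4me3 lists held 33762 and 27663 peaks in intermediate and 19356 and 23313 in early libraries. H3K27me3, a mark of silenced promoters, was at 8.62% ± 1.11 of the 319 in intermediate and 10.8% ± 0.665 in early libraries. BEC libraries, with H3K27me3 lists of 5737 and 2343 peaks, had it at 0.470% ± 0.222. At promoters with H3K27ac in all 4 libraries, H3K27me3 was at 1.64% in intermediate, 0.727% in early and 0.641% in BEC libraries.

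**Figure D4:**
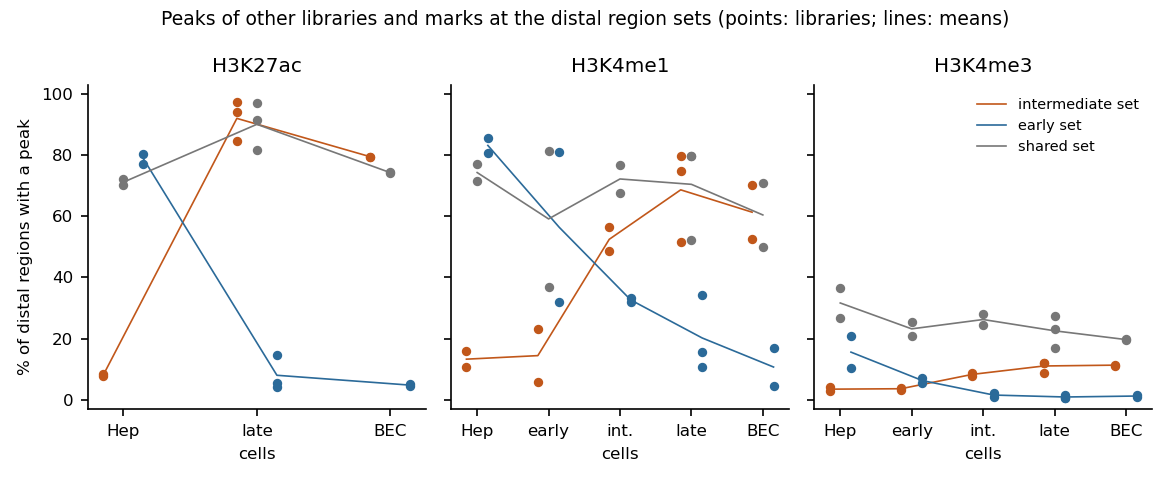
Points give, for each library, the percentage of distal regions with a peak of H3K27ac, H3K4me1 or H3K4me3 in the intermediate, early and shared sets, and lines join the means of each group of cells. The H3K27ac panel leaves out the libraries that defined the sets. The intermediate set averaged 8.15% in Hep and 91.9% in late libraries, and the early set 78.8% and 8.04%.

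Regions specific to one end of the series gave a related view. BEC-specific distal regions, with a peak in both BEC and no Hep library, numbered 13365, and 57.3% and 54.3% of them had a peak in intermediate 1 and 2, against 13.5% and 22.7% in early 1 and 2, a difference of 37.7 percentage points. With equal peak numbers the shares were 53.1% and 55.0% in intermediate and 23.0% and 27.6% in early libraries, over 7846 regions. Hep-specific distal regions numbered 11981, and 41.1% and 32.0% had a peak in intermediate libraries against 37.1% and 54.3% in early libraries, which overlapped. With equal peak numbers, 31.5% and 27.8% had one in intermediate and 56.6% and 59.6% in early libraries, over 7029 regions, and the stages did not overlap. At BEC-specific promoters the difference was 46.4 points with listed peaks (860 promoters) and 25.7 with equal numbers (724 promoters). At the 914 Hep-specific promoters of the listed peaks it was 9.46 points (69.0% and 46.2% in intermediate, 44.0% and 52.3% in early libraries). At the 1554 of equal numbers it was -14.2 points (45.1% and 34.4% against 62.0% and 45.9%). Its sign thus differed between the peak sets, and the stages overlapped with listed peaks only. Distal and promoter sets were defined anew with each peak set, so these differences are not over the same members.

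**Figure D5:**
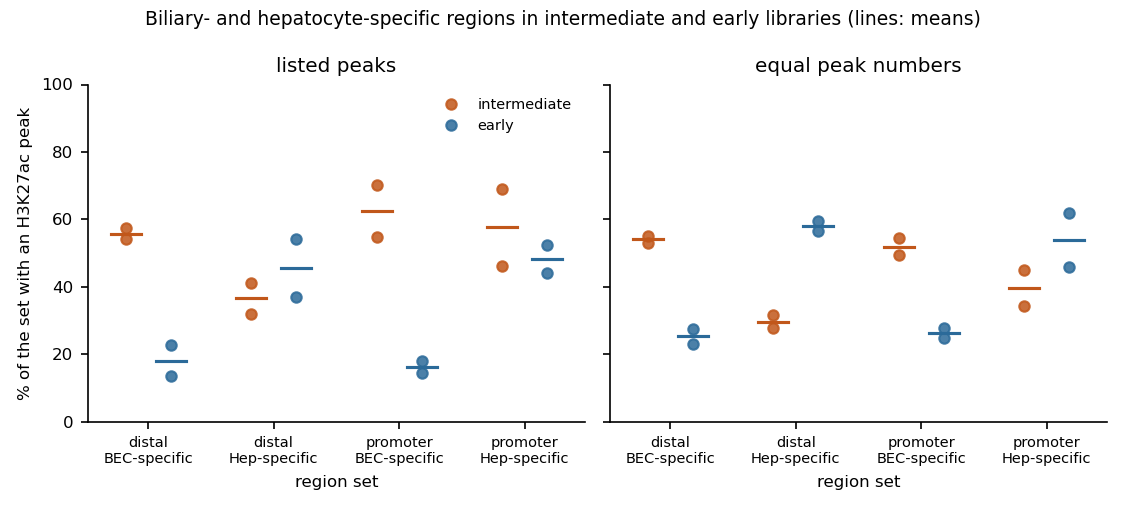
Points give the percentage of BEC-specific and Hep-specific regions with an H3K27ac peak in each intermediate and early library, and short lines their means, for listed peaks (left) and equal peak numbers (right). At BEC-specific distal regions the intermediate libraries lay above the early libraries in both panels (57.3% and 54.3% against 13.5% and 22.7% with listed peaks), while at Hep-specific distal regions the stages separated only with equal peak numbers.

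The overlap of whole peak lists showed the same unevenness between replicates. As a share of the bases in either list, intermediate 1 and 2 shared 43.8% of distal coverage, early 1 and 2 shared 34.8%, and the 4 pairs of an intermediate with an early library 24.3% to 33.7%. Early 1 and 2 were thus hardly more alike than intermediate 1 and early 2 (33.7%). At promoters the intermediate pair shared 43.9%, the early pair 32.3% and the mixed pairs 27.8% to 37.1%.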

How the data were processed

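The authors deposited 1 peak list per library, as positions and a score per peak, on mm10. Bowtie2, Picard, deepTools and MACS2 are named, without versions, per the submitters' processing notes. The labels do not define the deposited score, so scores served only for ranking the peaks of a library. Per the labels, cells were fixed with 0.1 to 0.15% formalin and a protein A/G-Tn5 fusion was used. No read counts were used here, so depth is unknown.

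The members, lists and tests were chosen with earlier results of these data known. Peaks on other contigs (322 of 469529 in the 11 H3K27ac lists, 0.0686%) were left out. Starts of 17491 of 21883 protein-coding genes (79.9%) came from the RefSeq table of GRCm38.p6, taking the one with the most H3K4me3 where a gene had several. A further 2857 were placed at the gene end with more H3K4me3, and 1535 without either had no promoter value. A promoter was 2500 bp on each side of the start. Distal regions were merged peaks of the 11 libraries lying farther from every start. Those with a peak in 2 or more libraries were tested on log2(bp + 100) with limma 3.58.1 in R 4.3.3 (lmFit, eBayes), with 5 stages and no block, and Benjamini-Hochberg adjustment at 0.05. The fit was tested on simulated data. Coverage of peaks is not signal height, so a wider list gives larger values.

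Replicate numbers were not used as pairs in the main fit. Same-numbered deviations correlated at 0.0602 at promoters and 0.0357 at distal regions. With 2 libraries a stage and lists of unlike length, this cannot show whether same-numbered libraries share an animal. Genes named were up to 10 promoters per direction called with both peak sets without overlap between stages, 10 genes per direction with the most called regions, 5 regions per direction, and up to 4 members per direction of each of 18 lists, with Cd24a and Epcam.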

Additional observations from a re-analysis of the deposited data

How the results depend on the processing

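Promoter calls (547 with listed peaks) depended on the processing. They numbered 166 with equal peak numbers, 91 after quantile normalization, 944 with peaks resized to 400 bp, 822 with a pseudocount of 20 bp, 5 with 500 bp, 0 with the 4 libraries alone (1762 at an unadjusted p under 0.05) and 0 with the replicate block (2296 unadjusted). Leaving out 1 library gave 0 to 1116. Added after seeing the data, equal numbers with quantile normalization gave 254, and equal numbers without 1 of the 4 libraries 0 to 235. Distal calls (4858) numbered 7481 with the 4 libraries alone and 3043 with equal numbers and resized peaks together (also added). With the replicate block, which treats same-numbered libraries as linked, they numbered 4941. Whether such libraries are linked is unknown. Leaving out 1 library gave 3875 to 5819, and the other alternatives stayed within 1.5 times. The BEC-specific difference of 37.7 points was 28.8 with equal numbers, 24.9 where peaks had to cover 50% of a region, and 28.0 to 42.3 without 1 library. The Hep-specific difference of -9.13 points was -28.5 with equal numbers and -17.7 to -0.530 without 1 library. Of named promoters, Mrgprg turned to 0.08 with resized peaks and Itga2 to -0.14 with equal numbers and quantile normalization. The cause of these changes was not tested. No named distal region called in both peak sets changed direction under any alternative run on the same regions. These regions were selected by their direction in both peak sets, and many had 0 bp in both libraries of 1 stage. Few alternatives could therefore have turned them, so this says little about their stability. Signal under the authors' peak threshold and read depth are unknown and limit all values.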
